A study of Mus musculus with 16 samples.

Results

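The 10 genes described here belong to the bone morphogenetic protein (BMP) pathway. They are the ligands Bmp2, Bmp4 and Bmp7, the secreted antagonists Nog, Chrd and Fst, and the inhibitor-of-DNA-binding genes Id1, Id2, Id3 and Id4. They were chosen by name from the 27807 genes of the deposited table, and all 10 passed the filter on low values, a mean of at least 10 normalised counts over all libraries. RNA-seq of poly(A) RNA had been made from 16 libraries in 8 groups of 2, from wild-type (WT, Taf4+/+) and knockout (KO, Taf4-/-) mouse embryonic stem (ES) cell lines. Taf4 belongs to TFIID, the complex that recognises core promoters for RNA polymerase II, and the KO cells carry a Taf4a null allele on both chromosomes. The ES cells were grown with LIF on inactivated fibroblast feeders. Embryoid bodies (EBs) were taken before all-trans retinoic acid (EB4), a day after it was added (EB5) and after further days of treatment (EB8). The study used 2 independent lines per genotype, derived from blastocysts of heterozygous crosses, so a difference between genotypes is also a difference between 2 pairs of lines.

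BMP ligands bind type I and type II serine/threonine kinase receptors on the cell surface, which phosphorylate Smad1, Smad5 and Smad9. These join Smad4 and activate target genes, among which the Id genes are the best known. Id proteins carry a helix-loop-helix without a DNA-binding region, so they hold E proteins such as Tcf3, Tcf4 and Tcf12 in dimers that cannot bind DNA, and thereby keep proneural bHLH factors from acting. In ES cells BMP4 with LIF is known to sustain self-renewal through Id genes. In the early embryo antagonists of BMP permit neural induction, and in the neural tube BMPs from the roof plate pattern dorsal cells.

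Promoter sequence from RefSeq (GRCm38.p6) covered 5 of the 10 genes, Bmp4, Chrd, Id2, Id3 and Id4, from 250 bases before to 50 bases after the start of the gene. The windows of the 3 Id genes are shown, up to the start, because Id2 and Id4 were the members whose difference between genotypes at EB8 was called under every setting tried and with any single EB8 library left out, with Id3 beside them. Each runs 5′ to 3′ on the strand of the gene, and capitals mark GGCGCC, a GC-rich sequence that BMP-activated Smads are known to bind. The Id2 window is chr12:25096093-25096342 on the minus strand, the Id3 window chr4:136143572-136143821 and the Id4 window chr13:48260866-48261115, both on the plus strand.
Id2: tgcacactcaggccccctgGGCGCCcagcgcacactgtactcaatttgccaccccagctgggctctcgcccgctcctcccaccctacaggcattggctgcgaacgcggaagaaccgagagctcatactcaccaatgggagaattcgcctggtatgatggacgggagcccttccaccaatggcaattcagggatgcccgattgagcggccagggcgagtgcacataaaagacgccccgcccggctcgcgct
Id3: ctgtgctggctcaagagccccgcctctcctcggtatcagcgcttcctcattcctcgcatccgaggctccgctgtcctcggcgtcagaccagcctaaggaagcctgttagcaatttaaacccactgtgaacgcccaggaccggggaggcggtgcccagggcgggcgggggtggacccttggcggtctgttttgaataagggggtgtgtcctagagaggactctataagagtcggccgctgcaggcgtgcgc
Id4: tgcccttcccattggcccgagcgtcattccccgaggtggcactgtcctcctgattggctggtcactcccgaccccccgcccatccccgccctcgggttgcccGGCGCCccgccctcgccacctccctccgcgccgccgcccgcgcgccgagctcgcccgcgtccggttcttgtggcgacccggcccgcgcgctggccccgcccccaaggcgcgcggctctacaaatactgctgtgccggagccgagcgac
GGCGCC, which reads the same on both strands, occurred once each in the windows of Id2 (first base at -231 from the start), Id4 (-148) and Chrd (-203), and was absent from those of Bmp4 and Id3. It was present in 3 of the 5 windows, and in 11.9% of all 32851 promoter windows of the same length. TATAAA was in 0 of the 5 windows on either strand, against 13.6% of all windows on either strand and 8.32% on the sense strand. The windows were GC-rich, from 60.0% in Id3 to 78.3% in Chrd. GGCGCC holds only G and C, and its share among windows of like GC content was not taken. Chrd, whose window holds GGCGCC, is among the members not called in any comparison below.

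Depth ran from 32631020 to 40711826 reads in genes for the ES libraries and from 22442118 to 27685306 for the EB libraries. The Taf4a count per gene did not check the labels, since it was 1590.9 to 1959.6 normalised counts in the WT libraries and 1972.8 to 2400.0 in the KO libraries. The null allele lacks internal exons, and the count per gene includes the other exons. The library labelled WT ES replicate 2 stood apart, with the Y-linked Eif2s3y at 4.0 and Xist at 550.1. The other 7 WT libraries had Eif2s3y at 840.7 to 2248.1 and Xist at 15.5 to 52.5. Both WT EB4 libraries thus had the Y-linked signal that this ES library lacked. In the WT step from ES to EB4, stage and line therefore cannot be fully told apart. All KO libraries had Eif2s3y at 92.1 or less, so sex-chromosome content and genotype cannot be told apart in the EB comparisons. None of the 10 genes lies on a sex chromosome. The median over the genes of chromosome 11, which carries Nog, of the log2 level relative to each gene's median over libraries was 0.153 to 0.236 in the 4 KO replicate 1 libraries and not above 0 in the other 12. The same measure for chromosome 8, which carries no member, was 0.417 to 0.437 in replicate 1 of WT EB4, EB5 and EB8 and at most 0.037 in the other 13 libraries. Embryoid bodies contain several cell types, and in bulk RNA fewer cells of a type and less RNA per cell cannot be told apart. The summed level of 5 pluripotency markers was 48225.2 and 69207.5 in WT ES cells, and at EB8 it was 1225.5 and 1273.7 in WT but 18154.5 and 19787.9 in KO. The 4 neural progenitor markers in the table summed to 18715.2 and 14152.6 in WT and to 3686.4 and 3679.3 in KO at EB8. The part of these shifts in the results below was not tested.

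The question asked of each stage was whether KO and WT cells differed, and the largest share of the 10 genes differed at EB8. By limma on log2(normalised count + 1) with Benjamini-Hochberg adjustment over 16124 genes, Bmp7, Nog, Id2 and Id4 were lower in KO, and no member was called higher. Over all genes 12.5% were called lower and 22.9% in either direction, so the 4 of 10 members stood against a high background. The median log2 change of the members at EB8 was -1.61, beside -0.03 over all genes tested. At EB4 only Id4 was called, higher in KO, where 6.12% of all genes were called and 2.75% were called higher. In ES cells and at EB5 0 members passed limma. An unadjusted limma p below 0.05 was found for 4 and 3 members, and the share of all genes below that cutoff was not taken. In ES cells limma called 0% of all genes, edgeR called 0 genes and DESeq2 called 476, with 0 members under any of them. At EB5 limma called 4.34% of all genes. There edgeR called 0 members and DESeq2 called 2, Fst (lower) and Id4 (higher), given without the DESeq2 share of all genes.

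Whether the libraries overlapped was also counted, beside the share of all genes tested. In ES cells 2 members were higher and 4 lower in KO without overlap, where 19% and 20.7% of all genes were. At EB4 2 were higher and 2 lower, beside 25.3% and 26.6%. At EB5 1 was higher and 5 lower, beside 26.7% and 28.1%. At EB8 1 was higher, Bmp4, and 7 were lower, beside 30.4% and 33.5%. The EB8 members without overlap were all except Chrd and Id1.

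**Figure D1:**
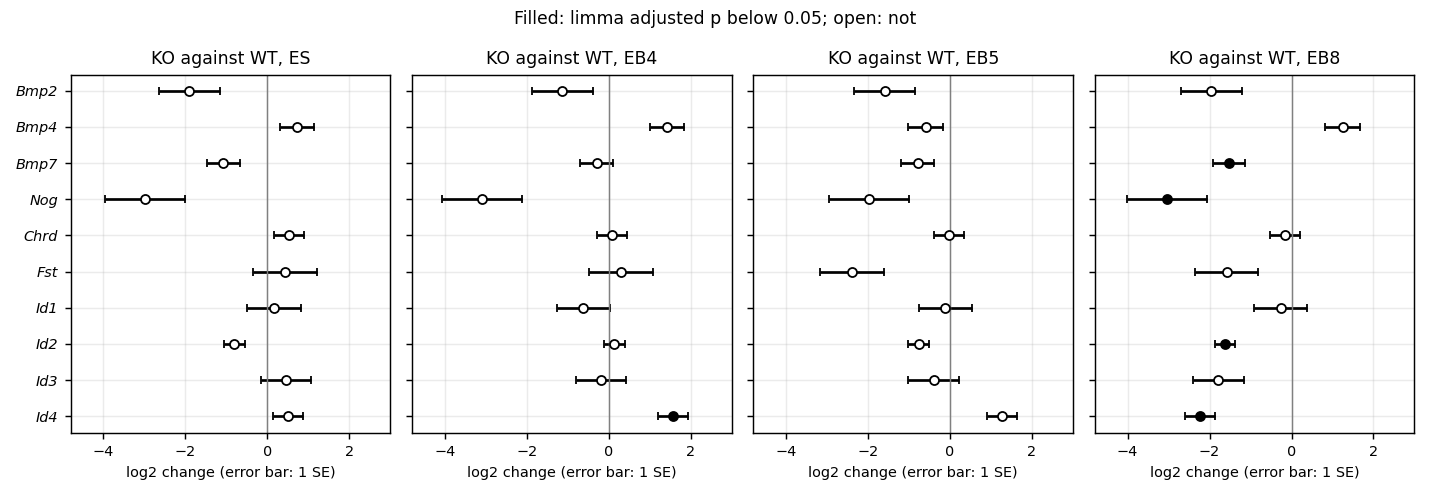
Log2 change of KO against WT (x axis, error bar 1 SE) for each of the 10 genes (y axis) at the 4 stages, with filled points for a limma adjusted p below 0.05. The 4 filled points at EB8 are Bmp7, Nog, Id2 and Id4, all left of zero, and the only other filled point is Id4 at EB4, right of zero.

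Among the ligands, Bmp7, which acts in kidney, eye and dorsal neural development, had a higher level per length than Bmp4 in 5 of the 8 groups and a lower one in ES cells of both genotypes and in KO EB4. The gene is at chromosome 2, 172693513 to 172765822, minus strand (NCBI37, the mm9 build of the files). In WT it had 94.7 and 278.3 normalised counts in ES cells, 267.4 and 419.3 at EB4, 863.8 and 884.0 at EB5, and 2186.3 and 2242.5 at EB8. In KO it had 67.2 and 87.9, 239.5 and 313.9, 500.6 and 507.1, and 862.0 and 686.0 at the same stages. The group mean was higher at each later stage in both genotypes, and the genotypes overlapped only at EB4. At EB8 the WT mean was 2.86-fold the KO mean, a log2 change of -1.52 (SE 0.40, limma adjusted p = 0.0168). KO EB8 lay just below WT EB5, with no overlap. The EB8 call held under all 11 other settings that used every library (adjusted p 0.0012 to 0.0297), and leaving out single EB8 libraries gave adjusted p from 0.0496 to 0.0966, past the threshold in 1 of 4 cases, that without KO replicate 1.

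The steps of Bmp7 were gradual. From ES to EB4 it rose in KO by 1.82 on the log2 scale (SE 0.40, limma adjusted p = 0.0320), where 3.5% of all genes were called, and the WT difference of 1.04 did not pass (adjusted p = 0.0948). The KO call was lost when any of its 4 libraries was left out (adjusted p 0.118 to 0.169). From EB5 to EB8 the WT difference was 1.34 (adjusted p = 0.0531) and the KO difference 0.61 (adjusted p = 0.595). The test of the difference between genotypes in that step gave -0.73 (SE 0.57, adjusted p = 0.796), so the genotypes were not shown to differ in it.

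Bmp4, the ligand used in culture to hold ES cells in self-renewal, ran opposite in sign to the other ligands in ES cells, at EB4 and at EB8. It maps to chromosome 14, 47003195 to 47010344, minus strand, and shares 89 exonic bases with Gm15217 on the other strand, which had at most 5.8 normalised counts in any library. In WT Bmp4 had 382.3 and 335.7 in ES cells, 114.0 and 173.7 at EB4, 209.8 and 330.5 at EB5, and 121.8 and 193.8 at EB8. In KO it had 601.0 and 582.5, 389.0 and 368.8, 278.7 and 108.6, and 445.2 and 302.5. KO libraries were above all WT libraries of their stage in ES cells, at EB4 and at EB8, and overlapped them at EB5. None of these differences passed limma, with log2 changes of 0.72 in ES cells (SE 0.42, adjusted p = 0.561), 1.42 at EB4 (adjusted p = 0.0667) and 1.25 at EB8 (adjusted p = 0.0501). The EB8 value lay at the threshold, with adjusted p of 0.0174 to 0.0715 over the 11 other settings that used every library and past the threshold in 6 of them. DESeq2 called Bmp4 at EB4 and at EB8. It was also called after upper-quartile rescaling and after quantile normalisation, where the members called at EB8 were split into 1 higher and 4 lower, and 1 higher and 5 lower.

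In WT Bmp4 was lower by 1.34 on the log2 scale at EB4 than in ES cells (SE 0.42, limma adjusted p = 0.0476). In this step 7.57% of all genes were called lower, and stage and line cannot be fully told apart. The call was lost when any of the 4 libraries was left out. From EB4 to EB5 both WT libraries were higher and both KO libraries lower than those before them. From EB5 to EB8 the order was turned, with both WT libraries lower and both KO libraries higher. The differences between genotypes in these steps were -2.02 (SE 0.60, adjusted p = 1.00) and 1.85 (SE 0.60, adjusted p = 0.236), neither past the threshold.

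Bmp2, a close relative of Bmp4 that acts in heart and bone formation, had the lowest level per length of the 3 ligands in all 8 groups. The gene spans chromosome 2, 133377895 to 133388621, plus strand. WT had 64.6 and 44.6 in ES cells, 23.0 and 51.5 at EB4, 115.7 and 138.4 at EB5, and 263.6 and 183.2 at EB8. KO had 19.9 and 9.3, 22.2 and 10.2, 101.4 and 16.5, and 70.7 and 43.7. Every KO library was below every WT library of its stage, although the margin at EB4 was 22.2 against 23.0. The log2 changes were -1.90, -1.14, -1.59 and -1.96 from ES to EB8 (SE 0.74 each), and none passed limma (adjusted p = 0.359, 0.396, 0.249 and 0.0766). Without KO EB5 replicate 1, the KO library with 101.4, the EB5 change was -2.87 (adjusted p = 0.0496), and without KO EB5 replicate 2 it was -0.32 (adjusted p = 0.937).

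**Figure D2:**
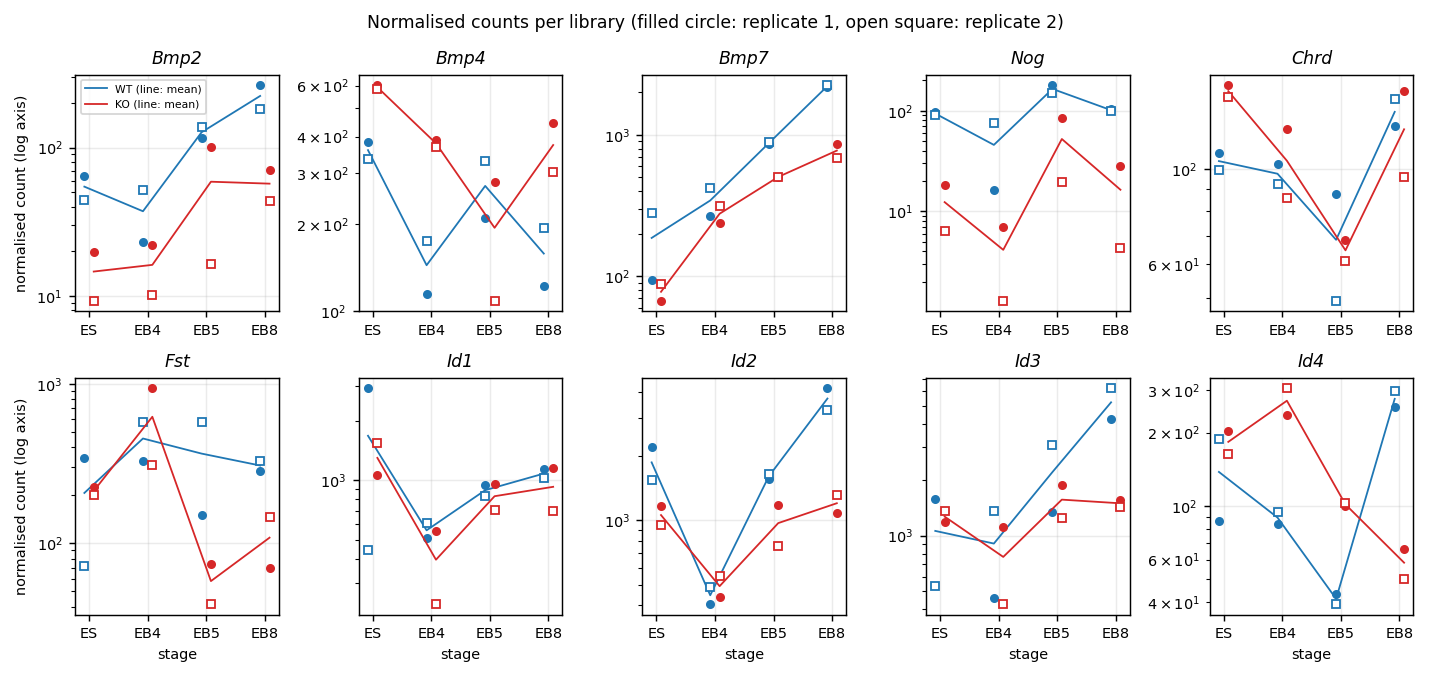
Normalised counts (log y axis, own scale in each panel) of the 10 genes at the 4 stages (x axis), with a filled circle for replicate 1, an open square for replicate 2 and a line through the group means (blue WT, red KO). Bmp7, Id2 and Id3 have their highest WT level at EB8, where KO is lower, Id4 crosses over between EB5 and EB8, and the Id1 replicates of the genotypes overlap at every stage.

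Nog was the only antagonist called between the genotypes. Noggin binds BMPs and keeps them from their receptors, and Nog lies on chromosome 11, 89161952 to 89163873, minus strand. In WT it had 96.5 and 90.9 in ES cells, 16.4 and 75.1 at EB4, 178.8 and 150.4 at EB5, and 104.0 and 98.5 at EB8. In KO it had 18.3 and 6.4, 7.0 and 1.3, 85.3 and 19.4, and 28.5 and 4.3. KO was below WT without overlap at all 4 stages, and at EB4 the 1.3 of KO replicate 2 stands for 1 read. At EB8 the WT mean was 6.17-fold the KO mean, a log2 change of -3.04 (SE 0.98, limma adjusted p = 0.0414). The log2 changes at ES, EB4 and EB5 were -2.98, -3.09 and -1.98 and did not pass (adjusted p = 0.253, 0.0816 and 0.276). The study, which normalised and quantified expression with DESeq2, named Noggin among the genes lower in KO ES cells. Here limma called 0% of all genes in ES cells, and neither limma nor DESeq2 called Nog there, although both KO libraries were below both WT libraries. In every stage KO replicate 2 had fewer Nog counts than KO replicate 1, the replicate whose chromosome 11 level was raised, and whether that level had a part in the counts was not tested. Without KO EB8 replicate 2 the change was -1.79 (adjusted p = 0.292) and without KO EB8 replicate 1 it was -4.28 (adjusted p = 0.0241). Leaving out either WT EB8 library also ended the call (adjusted p = 0.133 and 0.132). The call was also absent with edgeR (adjusted p = 0.0759), with a pseudocount of 0.1, without the filter and with the EB8 libraries alone.

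Fst encodes follistatin, which binds activins most tightly and also several BMPs. Its locus is chromosome 13, 115242470 to 115249159, minus strand. WT had 341.3 and 71.8 in ES cells, 329.9 and 576.9 at EB4, 150.6 and 578.7 at EB5, and 284.6 and 329.3 at EB8. KO had 225.8 and 199.4, 933.4 and 307.6, 74.0 and 41.7, and 69.6 and 147.0. The replicates lay far apart in several groups, yet KO was below WT without overlap at EB5 and EB8. Those differences, -2.39 and -1.59 (SE 0.78), did not pass limma (adjusted p = 0.104 and 0.165). In KO Fst fell by 3.25 on the log2 scale from EB4 to EB5 (limma adjusted p = 0.0499), where 0.695% of all genes were called lower. That call was lost in all 4 fits that left out a library (adjusted p 0.0693 to 0.266), in 5 of the 10 other settings, and the difference from the WT step of -0.56 did not pass (-2.69, SE 1.10, adjusted p = 1.00).

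Chrd encodes chordin, a BMP antagonist of the gastrula organizer, and was called in no comparison. The gene lies at chromosome 16, 20733200 to 20742457, plus strand, and shares 154 exonic bases with Thpo on the other strand, which had 10.6 to 106.3 normalised counts, and since the library kit does not mark strand, reads in the shared bases cannot be told apart. Chrd ranged from 49.4 to 146.1 in WT and from 61.1 to 156.9 in KO. Its lowest groups were WT EB5, with 87.5 and 49.4, and KO EB5, with 68.3 and 61.1, which overlapped. The KO against WT change was 0.54 in ES cells and between -0.17 and 0.08 at the EB stages (SE 0.36, limma adjusted p 0.623 to 0.978), and no step between stages was called.

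Among the Id genes, Id2 gave the most calls. Id2 is a target of BMP signalling that also responds to other pathways and acts in lymphoid and neural cells. It lies at chromosome 12, 25778666 to 25780957, minus strand. WT had 2198.1 and 1537.2 in ES cells, 406.6 and 484.7 at EB4, 1559.2 and 1656.0 at EB5, and 4142.7 and 3290.7 at EB8. KO had 1165.5 and 950.6, 435.8 and 547.5, 1185.1 and 755.4, and 1087.8 and 1316.6. KO was below WT without overlap in ES cells, at EB5 and at EB8, and the genotypes overlapped at EB4, where both were lowest. At EB8 the WT mean was 3.09-fold the KO mean, a log2 change of -1.62 (SE 0.25, limma adjusted p = 0.000891), and the call held in all 11 other settings and in all 4 fits that left out a library. In ES cells and at EB5 the changes of -0.80 and -0.76 did not pass (adjusted p = 0.230 and 0.108).

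In WT Id2 fell by 2.05 on the log2 scale from ES to EB4 (limma adjusted p = 0.000869), where stage and line cannot be fully told apart. It then rose by 1.85 from EB4 to EB5 (adjusted p = 0.0011) and by 1.20 from EB5 to EB8 (adjusted p = 0.0105). Without the WT ES library that stood apart, the first of these was -2.31 (adjusted p = 0.0021), and the last was lost without replicate 1 of WT EB5 or of WT EB8 (adjusted p = 0.0819 and 0.0834). In KO it fell by 1.11 from ES to EB4 (adjusted p = 0.0351), and the later steps of 0.95 and 0.34 did not pass (adjusted p = 0.0740 and 0.654). Over all genes 3.73% were called in the WT step from EB4 to EB5 and 2.51% in that of KO. The 3 differences between the genotypes' steps were 0.94, -0.90 and -0.86, and none passed (adjusted p = 0.649, 1.00 and 0.435). The KO call from ES to EB4 was lost when any of its libraries was left out (adjusted p 0.0954 to 0.194).

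Id4 was called in opposite directions between genotypes at different stages. It is expressed in neural precursors and is known to differ from the other Id genes in its response to BMP. The gene maps to chromosome 13, 48356796 to 48359405, plus strand, and shares 171 exonic bases with the antisense A330033J07Rik, which had at most 8.5 normalised counts. WT had 86.5 and 189.0 in ES cells, 84.4 and 94.4 at EB4, 43.3 and 39.5 at EB5, and 254.1 and 296.5 at EB8. KO had 202.6 and 163.7, 237.2 and 303.7, 99.6 and 102.8, and 66.5 and 50.1. KO was above WT without overlap at EB4 and EB5 and below it at EB8. The KO mean was 3.03-fold the WT mean at EB4, a log2 change of 1.58 (SE 0.37, limma adjusted p = 0.0307), and the EB5 change of 1.27 did not pass (adjusted p = 0.0720). At EB8 the WT mean was 4.72-fold the KO mean, a change of -2.23 (adjusted p = 0.0013). The EB8 call held in all 11 other settings and all 4 fits that left out a library, whereas the EB4 call was lost in all 4 (adjusted p 0.0557 to 0.251) and with the EB4 libraries alone (adjusted p = 0.157).

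From EB5 to EB8 Id4 rose by 2.70 on the log2 scale in WT (SE 0.37, limma adjusted p = 0.000893), where 5.82% of all genes were called higher, while in KO the change was -0.80 (adjusted p = 0.390). The test of the difference between these steps gave -3.50 (SE 0.52, adjusted p = 0.0126). For this difference 0.781% of all genes were called and 0.682% were called lower. It stayed past the threshold in 6 of the 8 fits that left out a library, and had adjusted p = 0.0804 without WT EB8 replicate 2 and 0.0671 without KO EB5 replicate 2.

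Id3 reached the highest counts of the 10 genes. It is found at chromosome 4, 135699412 to 135701670, plus strand. WT had 1581.9 and 535.8 in ES cells, 461.4 and 1348.9 at EB4, 1332.4 and 3064.9 at EB5, and 4243.5 and 6199.1 at EB8. KO had 1179.6 and 1349.4, 1105.2 and 428.8, 1882.9 and 1239.3, and 1562.6 and 1420.0. The genotypes overlapped at the first 3 stages, and at EB8 both KO libraries were below both WT libraries. The WT mean at EB8 was 3.50-fold the KO mean, with a log2 change of -1.78 (SE 0.61) that missed the threshold (limma adjusted p = 0.0541). Over the 11 other settings that used every library the adjusted p was 0.0054 to 0.0826, and it passed in 4 of them, DESeq2 included.

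Id1, the Id gene commonly used as a readout of BMP signalling, overlapped between the genotypes at every stage. The locus spans chromosome 2, 152561987 to 152563146, plus strand. WT had 2915.3 and 441.7 in ES cells, 506.3 and 606.9 at EB4, 942.9 and 835.7 at EB5, and 1134.1 and 1024.9 at EB8. KO had 1057.6 and 1535.9, 553.8 and 236.1, 954.7 and 703.0, and 1151.1 and 698.8. The widest gap between replicates was in WT ES cells, where the library that stood apart had 441.7. At EB8 the log2 change of Id1 was -0.27 (SE 0.65, limma adjusted p = 0.807), and it ranged from -0.61 to 0.17 at the other stages. In ES cells the sign depended on that library, at 0.17 with it and -1.19 without it.

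Leaving out WT ES replicate 2, the ES changes of Fst and Id3 also turned sign, to -0.68 and -0.33, and 0 members were called. Without WT ES replicate 1 instead, Bmp7 was called lower in KO ES cells (-1.84, limma adjusted p = 0.0373), a call that then rested on replicate 2, with 278.3, as the lone WT library. Without replicate 2 the Bmp7 change was -0.30 (adjusted p = 0.884).

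Over the steps between adjacent stages, the members called in WT were Bmp4 and Id2 from ES to EB4, Id2 from EB4 to EB5, and Id2 and Id4 from EB5 to EB8. In these steps 16.5%, 3.73% and 10.4% of all genes were called, and the first can also hold a difference between lines. In KO they were Bmp7 and Id2 from ES to EB4 and Fst from EB4 to EB5, where 3.5% and 2.51% of all genes were called. From EB5 to EB8 0 members were called in KO by limma, edgeR or DESeq2, 3 had an unadjusted limma p below 0.05, and 0.738% of all genes were called. Id4 from EB5 to EB8 was the only step in which the genotypes differed past the threshold. For the steps from ES to EB4 and EB4 to EB5, limma called 0 members and 0% of all genes as differing between genotypes. By edgeR and DESeq2 0 members were called there, and 1 and 3 members had an unadjusted limma p below 0.05. The share of all genes below that unadjusted cutoff was not taken, here or for the KO step from EB5 to EB8.

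**Figure D3:**
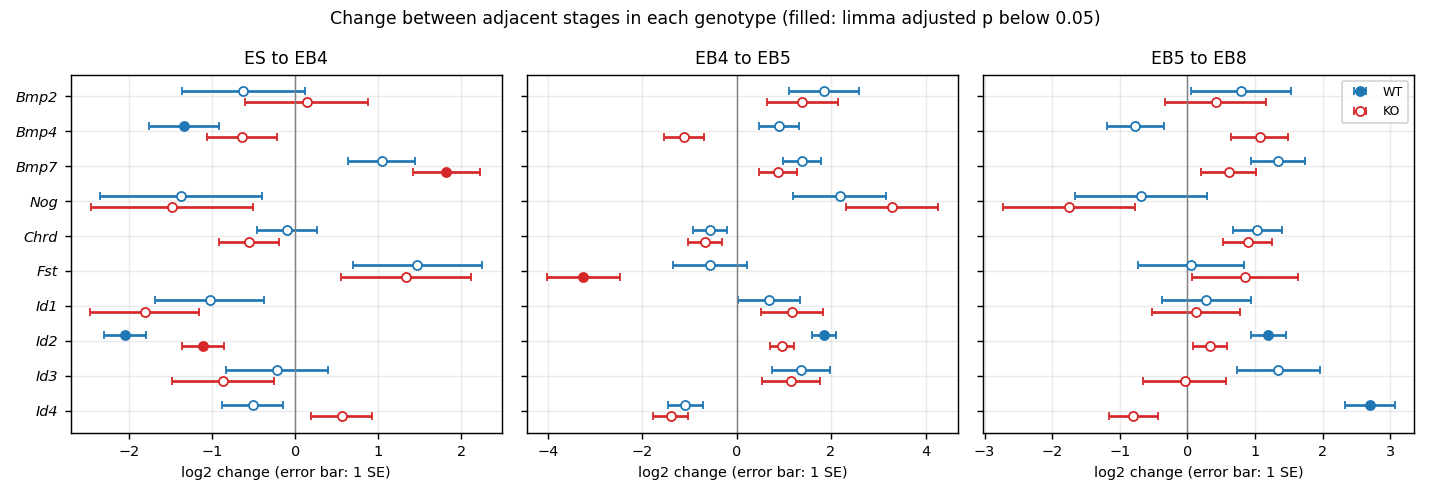
Log2 change between adjacent stages (x axis, error bar 1 SE) for each gene (y axis) in WT (blue) and KO (red), with filled points for a limma adjusted p below 0.05. Id2 is filled in all 3 WT steps, and Id4 from EB5 to EB8 is the point where WT, at 2.70, and KO, at -0.80, lie farthest apart.

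Compared per kilobase of exon, the order of levels differed between the genotypes at EB8. In WT EB8 the mean level was 2927 normalised counts per kilobase for Id2, 2915 for Id3 and 931 for Id1. Bmp7 had 551 per kilobase, Id4 166, Fst 114, Bmp4 71.0, Bmp2 62.8, Nog 52.7 and Chrd 23.3. In KO EB8 the level per kilobase was 947 for Id2, 833 for Id3, 797 for Id1, 193 for Bmp7 and 168 for Bmp4. The remaining KO levels per kilobase were 40.3 for Fst, 35.1 for Id4, 21.2 for Chrd, 16.1 for Bmp2 and 8.53 for Nog. Bmp7 and Bmp4 were thus far apart in WT EB8 and close together in KO EB8, and differences in level between genes were not tested.

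The rest of the pathway was read from lists of genes by role. Other settings and fits that left out a library were read only for the 10 genes, so calls on these lists lack that check. At EB8, where 22.9% of all genes were called, 1 of the 5 tested genes among 12 other BMP and GDF ligands was called, and the remaining 7 had means below 10. That gene was Gdf3, a TGF-beta family ligand of pluripotent cells, with 17.9 and 37.1 in the WT libraries against 447.3 and 502.8 in KO (4.15 on the log2 scale, limma adjusted p = 0.000132). Of 6 receptors 3 were lower and 0 higher. The type I receptor Bmpr1b had 377.0 and 560.1 in the WT libraries against 155.1 and 163.0 in KO (-1.53, adjusted p = 0.0351). The type II receptors Acvr2b and Acvr2a changed by -1.32 (adjusted p = 0.0101) and -0.74 (adjusted p = 0.0085). All 6 receptors were lower in KO without overlap at EB8, where 33.5% of all genes were, and their median change was -0.66. All 6 were also lower without overlap at EB4 and at EB5, beside 26.6% and 28.1% of all genes. Their median changes there were -0.73 and -0.67, and 1 receptor was called lower at EB4. In ES cells 4 were lower and 1 higher without overlap, beside 20.7% and 19% of all genes.

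Of the 6 Smads tested, 2 were lower and 1 higher at EB8. Smad1, which BMP receptors phosphorylate, had 1932.2 and 1552.2 in the WT libraries against 798.7 and 1059.9 in KO (-0.91, limma adjusted p = 0.0177). Smad1 lies on chromosome 8, whose level was raised in the first of these WT libraries, and the part of that in the call was not tested. The shared partner Smad4 changed by -0.45 (adjusted p = 0.0420). Smad7, an inhibitory Smad, had 520.9 and 832.2 in the WT libraries against 1409.6 and 992.8 in KO (0.84, adjusted p = 0.0487). At EB4 Smad7 was also higher in KO (1.26, adjusted p = 0.0265) and Smad4 lower (-0.58, adjusted p = 0.0390). Smad6, the inhibitory Smad most closely tied to BMP, rose from EB4 to EB5 in both genotypes, by 1.94 in WT (adjusted p = 0.0497) and 2.08 in KO (adjusted p = 0.0474).

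Of the 12 tested genes among 15 other antagonists and modulators, 2 were lower and 0 higher at EB8. Sostdc1, which binds BMPs and also acts on Wnt signalling, had 62.0 and 83.6 in the WT libraries against 2.1 and 3.2 in KO (-4.34, limma adjusted p = 0.0184). A level so low in KO leaves the size of the fitted change dependent on the pseudocount, as it does for Neurog2 and Neurod4 below. Fstl1, related to follistatin, changed by -0.85 (adjusted p = 0.0335). At EB4 the chordin relative Chrdl1 was lower, with 110.7 and 90.1 in the WT libraries against 22.2 and 6.4 in KO (-2.95, adjusted p = 0.0460). Chrdl1 is X-linked, and the same measure for the X chromosome was 0.356 to 0.575 in WT ES replicate 2 and the 4 KO replicate 2 libraries and between -0.217 and -0.070 in the other 11.

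Of the 9 tested genes among 10 other targets of BMP, 2 were higher and 1 lower in KO at EB8. Tfap2c, a transcription factor of germ cells and trophoblast as well as of BMP responses, had 157.5 and 361.0 in the WT libraries against 4288.8 and 1709.7 in KO (3.50, limma adjusted p = 0.000717). The T-box factor Tbx3, which also acts in naive pluripotency, changed by 3.16 (adjusted p = 0.0016), and both were already higher at EB5 (2.15 and 2.46, adjusted p = 0.0401 and 0.0292). Atoh8, a bHLH gene, had 356.0 and 416.1 in the WT libraries against 110.8 and 84.2 in KO at EB8 (-1.98, adjusted p = 0.0470). From EB4 to EB5 it had risen in both genotypes, from 1.1 and 2.1 to 502.5 and 477.7 in WT and from 0.0 and 2.6 to 292.0 and 113.5 in KO (adjusted p = 4.78e-05 and 0.000186).

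The bHLH genes that Id proteins act on also differed at EB8. Of the 3 E proteins 2 were lower in KO, Tcf4 with 4540.7 and 4983.7 in the WT libraries against 1292.5 and 1734.2 in KO (-1.67, limma adjusted p = 0.000425) and Tcf12 (-1.02, adjusted p = 0.0043). Of the 6 tested neural bHLH factors 4 were lower and 0 higher. The proneural factor Neurog2 had 830.6 and 552.7 in the WT libraries against 5.3 and 2.1 in KO (-7.26, adjusted p = 0.000452), and the related Neurog1 had 1896.5 and 2343.1 in the WT libraries against 177.3 and 45.8 in KO (-4.53, adjusted p = 0.0031). Neurod4 and Neurod1, which act in neurons and their precursors, changed by -7.65 and -5.30 (adjusted p = 0.0015 and 0.000141). Id2 and Id4 and their E protein partners Tcf4 and Tcf12 were thus lower in the same KO EB8 libraries. Tcf4 and Tcf12 were also lower in KO at EB4 and EB5, each with an unadjusted limma p below 0.05. The share of all genes below that unadjusted cutoff was not taken. Of Tcf4 and Tcf12, 0 were called at EB4 and 1 at EB5, where 6.12% and 4.34% of all genes were called.

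**Figure D4:**
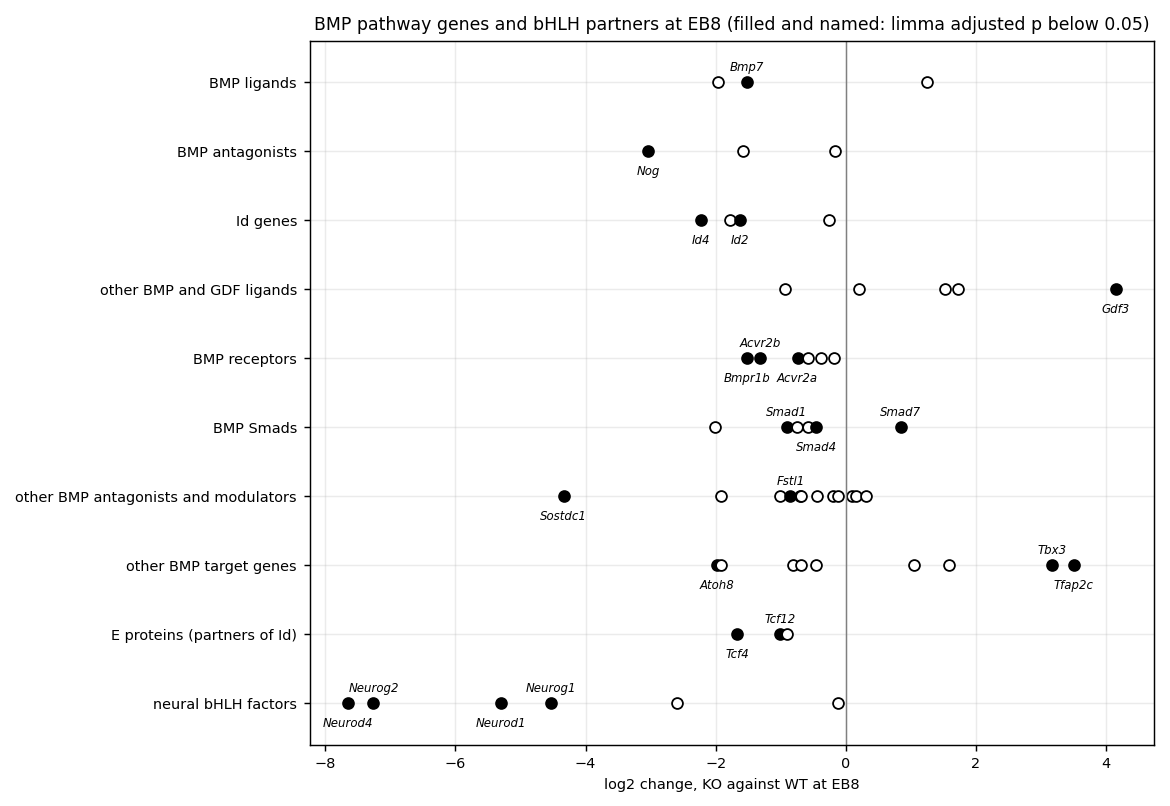
Log2 change of KO against WT at EB8 (x axis) for each tested gene of the 10 lists (y axis), with filled and named points for a limma adjusted p below 0.05. The members appear in the top 3 rows, receptors all lie left of zero, and the neural bHLH factors reach -7.65.

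Markers of other cell types were read at EB8 beside the 22.9% of all genes called there. Of 6 markers of the roof plate, a source of BMPs in the embryo, and of neural crest, 3 were lower and 1 higher, and their sum was 1779.9 and 4478.6 in the WT libraries against 718.5 and 321.7 in KO. Among them Wnt1 had 611.2 and 2125.0 in the WT libraries against 79.1 and 5.3 in KO. Sox10 was the marker called higher, with 7.4 and 20.1 in the WT libraries against 167.8 and 73.5 in KO. Lmx1a overlapped, at 22.1 and 124.9 in the WT libraries against 17.9 and 51.1 in KO. Of 5 tested visceral endoderm markers 1 was lower, and the sum over 8 was 1150.9 and 1106.4 in the WT libraries against 655.2 and 486.8 in KO. Of 5 tested mesoderm markers 1 was higher, and the sum over 6 was 399.0 and 429.9 in the WT libraries against 718.5 and 1242.1 in KO. Of 6 tested fibroblast markers 0 were called by limma, 1 of them with an unadjusted p below 0.05, and the sum over 7 overlapped, at 2104.4 and 2772.9 in the WT libraries against 876.8 and 3137.1 in KO. In ES cells, where feeders can add RNA, that sum was 1033.0 and 2650.2 in the WT libraries against 209.2 and 493.9 in KO. No fibroblast marker was at 0 in both libraries of a group at these stages, and Mesp1 was the only mesoderm marker at 0 in both WT EB8 libraries. The part of these cells in the values of the 10 genes was not tested.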

How the data were processed

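Poly(A) RNA had been sequenced as single-end reads from TruSeq v2 libraries, a kit that does not mark strand. The submitters' processing notes name CASAVA 1.7 and 1.8, TopHat2 2.0.10, HTSeq 0.5.4p3, DESeq2 1.0.19 and the mm9 build. The authors deposited normalised read counts per gene (a signal, counts divided by DESeq2 size factors) for 16 libraries. In each library 100% of values were whole multiples of a step of 0.715 to 1.28 (tolerance 0.01), which gave back the reads. From the deposited values log2(normalised count + 1) was tested with limma 3.58.1 (R 4.3.3, trend), with 8 group means over all 16 libraries and genes of mean 10 or more (16124 of 27807), at a Benjamini-Hochberg adjusted p of 0.05. Fold changes on that scale understate those of low genes. Data were simulated for EB8 with 100 of the 16124 genes changed by 1 and 100 by 2 on the log2 scale. Of these 17 and 61 were called, with 5 false calls. In the real EB8 comparison 22.9% of all genes were called, so the simulated rates need not hold for it. edgeR 4.0.16 and DESeq2 1.42.0 on the recovered reads were alternatives. Gene positions came from GENCODE M1. Groups came from the labels. The labels name no line or culture for a library, so p-values measure the spread between these libraries, which for the EB groups includes chromosome-level differences that stayed with the replicate number. The 10 genes and all gene lists were chosen with earlier results of these data known. Genes named outside the 10 were, for each list and comparison, those past the threshold with the largest changes, at most 4 per list. TATAAA and GGCGCC were searched in the promoter windows. Some results are not reported here. With 2 libraries a group the precision is low.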

Additional observations from a re-analysis of the deposited data

Results flagged for a closer look

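The change of Id4 from EB5 to EB8 differed between the genotypes. KO minus WT was -3.50 on the log2 scale (SE 0.52, limma adjusted p = 0.0126), with both WT EB8 libraries above both WT EB5 libraries and both KO EB8 libraries below both KO EB5 libraries. Bmp4 was marked because its libraries moved in opposite directions without overlap in the genotypes. KO minus WT was -2.02 from EB4 to EB5 (SE 0.60, limma adjusted p = 1.00) and 1.85 from EB5 to EB8 (SE 0.60, adjusted p = 0.236), so neither test of the difference passed.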

How the results depend on the processing

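For the 49 gene values tried, 621 of 710 alternative values kept their direction and side of the threshold, 47 lost a call, 19 gained one and 23 turned sign, none of the last among the 14 called values. Only the 14 called values could lose a call, so all 47 losses were among their alternatives. Causes were not tested. KO against WT at EB8, with 4 members called, gave 7 with DESeq2. At EB4, with 1, it gave 0 with only the compared groups and 3 with DESeq2, and at EB5, with 0, it gave 2 with DESeq2. Counts of members under each other setting stand here without the share of all genes called under it. In ES cells DESeq2 called more genes than limma, so its member counts cannot be set against the limma shares. WT from ES to EB4, with 2, gave 1 without the filter, with quantile normalisation and with edgeR. KO from ES to EB4, with 2, gave 0 without the filter and 1 with quantile normalisation. KO from EB4 to EB5, with 1, gave 0 with a pseudocount of 0.1, without the filter and with edgeR, 2 with quantile normalisation and 4 with DESeq2, and WT from EB4 to EB5 gave 2 with DESeq2. Leaving out single libraries gave 2 to 4 at EB8, 0 to 0 at EB4, 0 to 1 at EB5 and in ES cells, 1 to 3 for WT from ES to EB4, 1 to 2 for WT from EB5 to EB8, 0 to 0 for both KO steps with calls and 0 to 1 for the difference in the step from EB5 to EB8. Upper-quartile rescaling moved the median of all genes at EB8 to 0.11 and Chrd at EB5 to 0.03.

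With the replicate number as a block, WT from ES to EB4 gave 1 and KO from EB4 to EB5 gave 0, and blocking within genotype gave 2 for WT and 2 for KO from EB4 to EB5. The labels do not tie the numbers to lines. Between genotypes, deviations of the same number correlated at 0.34, -0.06, -0.21 and -0.13 from ES to EB8. Between successive stages they correlated at -0.076, 0.605 and 0.57 in WT and at 0.389, 0.422 and 0.233 in KO. A crossed pairing, chosen after seeing the data, gave 7 members at EB8 and 0 at EB5.

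Among values not called, Id1 in ES cells turned sign with edgeR (-0.36) and DESeq2 (-0.37). Leaving out single libraries turned the sign of the KO against WT change of some members, which ran from -0.053 to 1.07 for Id4, -0.68 to 1.55 for Fst, -1.19 to 1.53 for Id1 and -0.33 to 1.23 for Id3 in ES cells. It ran from -0.50 to 1.10 for Fst, -0.61 to 0.036 for Bmp7, -0.19 to 0.34 for Chrd, -0.97 to 0.58 for Id3 and -0.027 to 0.30 for Id2 at EB4. The range was -0.43 to 0.38 for Chrd, -1.004 to 0.20 for Id3, -1.27 to 0.081 for Bmp4 and -0.34 to 0.10 for Id1 at EB5, and -0.50 to 0.16 for Chrd and -0.62 to 0.094 for Id1 at EB8.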

Other observations

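The genes whose 8 group means were most like those of each member, among tested genes with a mean of at least 50, are given as a description, since the 8 means share libraries and many genes follow the stages. For Bmp7 they were Ifngr2 (Pearson r = 0.992), Heg1 (0.989) and Gm16536 (0.986). For Bmp2 they were Col27a1 (r = 0.978), Fstl1 (0.977) and Tspan15 (0.977), and for Bmp4 Pus10 (0.973), Ripk1 (0.970) and Ercc4 (0.947). For Nog they were Homer2 (r = 0.952), Zfp775 (0.949) and Zfp326 (0.928), for Chrd Fbxw7 (0.935), 2410015M20Rik (0.930) and Psmf1 (0.916), and for Fst Ppip5k2 (0.978), Ppp2ca (0.939) and Sipa1l3 (0.920). For Id2 they were Tmem198 (r = 0.959), the neuroendocrine factor Insm1 (0.954) and Mob3a (0.949), and for Id3 B130046B21Rik (0.989), 2700081O15Rik (0.985) and Ddn (0.981). For Id1 they were Thap7 (r = 0.951), Trp53i13 (0.950) and Kdelr3 (0.935), and for Id4 Vta1 (0.942), Ggps1 (0.936) and Mybl1 (0.935).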
